A study of Brassica napus with 9 samples.

Results

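The genes described here are those whose read counts at 45 days after flowering (DAF) were at least 2-fold lower than in the control cultivar Youngsan in both transgenic lines of rapeseed (Brassica napus), CpFatB4 and CpFatB5. There were 121 such genes among the 91830 in the table. They were chosen by the measured values themselves, namely a log2 ratio of at most -1 in CpFatB4 and in CpFatB5 at 45 DAF and a mean scaled count of at least 1000 in each of the pairs compared, so the ratios at 45 DAF are a description of the selection and not a finding. A total of 5571 genes passed that minimum in both comparisons and serve as the background throughout. The same Youngsan library at 45 DAF enters both ratios, so a high value in that 1 library lowers both of them together.

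Whole pods, which are the pod wall with the seeds inside it, were harvested from Youngsan and from homozygous T4 plants of 1 CpFatB4 line and 1 CpFatB5 line in the Youngsan background. Each transgene encodes an acyl-ACP thioesterase of Cuphea paucipetala and was driven by a Napin promoter of B. napus, which is specific to the seed. The 3 stages were 8, 25 and 45 DAF, which the sample labels count from fertilization, and the 9 libraries are named C1, C2 and C3 for Youngsan, 41, 42 and 43 for CpFatB4, and 51, 52 and 53 for CpFatB5. RNA of 3 preparations was pooled into 1 library for each line and stage, so no difference between lines or stages has a replicate, and none was tested.

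Acyl-ACP thioesterases end the lengthening of a fatty acid in the plastid by releasing it from its carrier protein. Late in seed development the embryo passes from the filling with storage protein and oil to maturation and drying, and genes for late embryogenesis abundant (LEA) proteins, hydrophilic proteins that protect cells during the loss of water, are switched on strongly. B. napus carries 2 subgenomes, A and C, from its B. rapa and B. oleracea ancestors, and most genes are therefore present as an A copy and a C copy. In pods, fewer cells of a type and less RNA per cell cannot be told apart.

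Depth and composition differed most at 45 DAF. Summed over its 2 raw columns, 53 was the shallowest library with 38677752 counts, against 65858614 for 43, 69569296 for C3 and at most 88259440 for any library. In every library this sum exceeds the clean reads that the study lists, so it is not a number of reads. The study also lists the fewest clean reads for 53. Between the columns of 1 library, log2 ratios of genes with at least 1000 scaled counts had an SD of 0.0474 to 0.0675, which measures the repeatability of the counting only. The 20 most abundant genes took 38.7% of the counts in 43, 18.1% in 53 and 9.15% in C3, against 3.78% to 10.9% in the libraries of 8 and 25 DAF. Seed storage genes moved with the lines: 3 napin genes summed to 233120 scaled counts in C3, 2493056 in 43 and 98522 in 53, and 2 cruciferin genes to 503111, 3671620 and 211312. The sum of 4 oleosin genes, which coat oil bodies, was 245892 in C3, 341182 in 43 and 215573 in 53, and 1 seed coat laccase gene stood at 400.8, 1021 and 181.4. A list of 34 photosystem genes, which the study drew from genes that differed in these libraries, summed to 45477 in C3, 193744 in 43 and 656957 in 53. The sum does not describe the typical gene of that list. Of its genes, 14 passed the minimum, with a median log2 ratio at 45 DAF of 0.67 in CpFatB4 and -0.58 in CpFatB5. In each line 6 of the 14 were at least 2-fold higher and 0 at least 2-fold lower. None of these lists had a gene without a read in all libraries, and their part in the lower counts of the 121 genes was not tested.

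The size of the selection depended on how the libraries were scaled. Scaled counts here are counts divided by a median-of-ratios size factor, and on this scale the median log2 ratio of the 5571 background genes was already below 0 at 45 DAF, at -0.35 in CpFatB4 and -0.49 in CpFatB5. The 121 genes were therefore 0.97 below the median gene in CpFatB4 and 0.66 below it in CpFatB5. Under total count scaling 231 genes passed the same thresholds, and 87 of the 121 were among them. The number was 39 under TMM scaling, 33 under total counts without the 20 most abundant genes, 22 under upper quartile scaling and 13 when only genes averaging at least 1000 counts set the size factors, and every gene in these 4 lists was among the 121. After the ratios were centred on the median of the background genes, a choice made after the values were seen, 6 genes remained. Under each of the 5 other scalings the log2 ratio of every one of the 121 genes stayed below 0 in both lines, and the highest was -0.53. A scaling shifts all ratios of a line by one amount, and the rule had set them at -1 or lower. That outcome therefore follows from the selection and lends it no support.

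**Figure D1:**
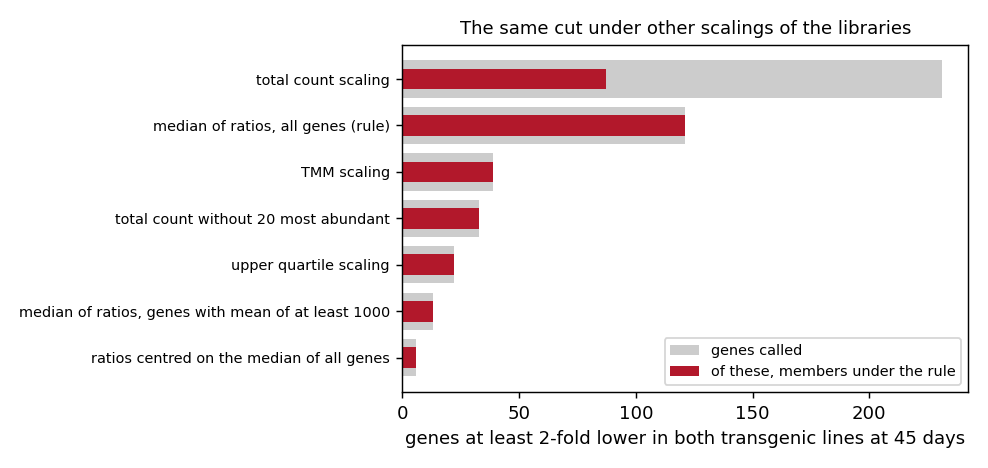
Genes at least 2-fold lower in both transgenic lines at 45 DAF (horizontal axis, number of genes) under 7 ways of scaling the libraries; grey bars are all genes that passed and red bars those among the 121. The grey bars run from 231 under total count scaling to 6 after centring on the background median, and in every list but that of total count scaling all genes belong to the 121.

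The 6 genes that passed under the 5 other scalings and after centring were BnaC05g45930D, BnaA07g17200D, BnaA02g21770D, BnaC04g40870D and the pair BnaA09g36810D and BnaC08g28500D. BnaC05g45930D had 3656 scaled counts in C3, 1189 in 43 and 524.4 in 53. Its log2 ratio was -1.62 in CpFatB4 and -2.80 in CpFatB5, the lowest of all 5571 background genes in CpFatB5. The columns of the libraries differed here, with a CpFatB5 ratio of -3.16 from column 1 alone and -2.49 from column 2 alone. BnaA07g17200D stood at 5978 in C3, 2013 in 43 and 2081 in 53. BnaA09g36810D stood at 3893, 1436 and 1351, and BnaC08g28500D at 3948, 1427 and 1376. In each of these 6 genes the levels of 43 and 53 lay closer to each other than to C3.

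Of the 5571 background genes, 815 (14.6%) were at least 2-fold lower in CpFatB4 and 782 (14.0%) in CpFatB5 at 45 DAF, and the 121 genes (2.17%) are those in both. Since the rule used these ratios, the shares are given as a description. The median ratio of the 121 genes was -1.32 in CpFatB4, with the lowest at -2.59, and -1.15 in CpFatB5, with the lowest at -2.80. Only 9 genes were over 4-fold lower in CpFatB4 and 2 in CpFatB5, BnaC05g45930D and BnaC03g13250D. Most ratios therefore lay near the limit. BnaA09g04190D, BnaA04g14120D and BnaA02g33940D were just inside the fold limit, where the weaker of their ratios was -1.0006, -1.0044 and -1.0058. BnaC07g16350D, BnaA01g18450D and BnaA07g12170D were just outside it, with -0.9993, -0.9988 and -0.9974. At the minimum, BnaA08g23820D, BnaA10g01780D and BnaC05g01860D had lower pair means of 1030, 1061 and 1068, and BnaA03g23410D, BnaC09g05250D and BnaA03g20310D missed it with 979.4, 945.6 and 917.2.

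**Figure D2:**
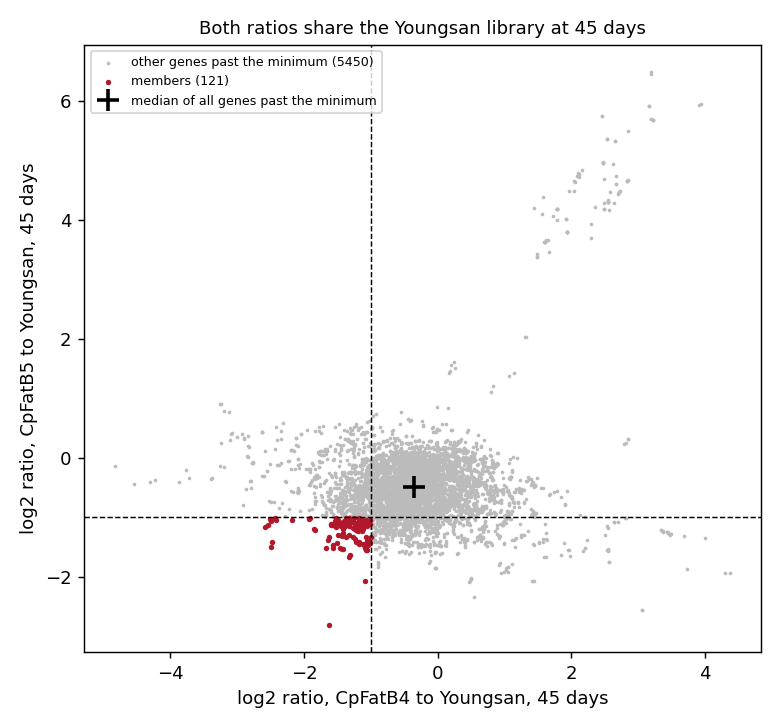
Log2 ratio to Youngsan at 45 DAF in CpFatB4 (horizontal axis) and in CpFatB5 (vertical axis) for the 121 genes (red) and the 5450 other genes past the minimum (grey); dashed lines are the fold limits and the cross is the median of all 5571 genes. The cross lies at -0.35 and -0.49, and most red points sit between -1 and -2 on both axes because the rule places them there.

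The counts of the 121 genes made up 1.89% of all counts in C3, 0.473% in 43 and 0.837% in 53. In the 6 libraries of 8 and 25 DAF they made up 0.232% to 0.398%. Their median level was 2821 scaled counts in C3, 1140 in 43 and 1163 in 53, against 410.2 to 554.5 at 8 DAF and 747.0 to 813.3 at 25 DAF. At 45 DAF the transgenic lines thus stood between their own earlier libraries and C3. C3 was the highest of the 9 libraries for 116 of the 121 genes, or 95.9%, where it was the highest for 48.4% of the background genes. The selection on a high C3 favours this outcome, and the value is given as a description. The 5 others were BnaA10g26060D and BnaCnng10340D, highest in C1 at 4480 and 4298, BnaA09g47750D and BnaC08g49610D, highest in 52 at 3145 and 3058, and BnaC03g13250D, highest in C2 at 3244.

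Between 25 and 45 DAF the 121 genes were mostly higher in Youngsan. A total of 92 of them, or 76.0%, were at least 2-fold higher in C3 than in C2, against 34.2% of the background, with a median log2 ratio of 1.67 against 0.46. In CpFatB4 the number was 39, or 32.2% against 19.7%, with a median of 0.34 against 0.09. In CpFatB5 it was 44, or 36.4% against 24.5%, with a median of 0.34 against -0.02. The libraries C3, 43 and 53 in these ratios are those the rule used. At least 2-fold lower at 45 than at 25 DAF were 3 genes in CpFatB4, where 4.63% of the background was, and 7 in CpFatB5, where 17.6% was, and none of the 121 in Youngsan, where 9.48% was. The ratio passed 2-fold in all 3 lines for 34 genes, in Youngsan and 1 transgenic line for 15, and in Youngsan alone for 43. No gene was 2-fold higher in Youngsan and 2-fold lower in a transgenic line.

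From 8 to 25 DAF, in libraries the rule did not use, most of the genes were higher in every line. Lower at 25 DAF were 28 in Youngsan (23.1%, as in the background at 23.1%), 16 in CpFatB4 (13.2% against 23.2%) and 12 in CpFatB5 (9.92% against 28.7%), and 5 were at least 2-fold lower in Youngsan (background 3.16%). At least 2-fold higher were 43 genes in Youngsan (background 22.5%), 49 in CpFatB4 (background 25.1%) and 67 in CpFatB5 (background 24.2%). The median log2 ratios of the 121 genes were 0.73, 0.86 and 1.19, and those of the background were 0.42, 0.44 and 0.38. The median of these genes was thus above that of the background in all 3 lines, and the CpFatB5 median was the largest of the 3.

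By time course the 121 genes were divided into 3 groups, with limits set after the values were seen: 13 genes with a mean of at most 10 raw counts in each library of 8 DAF, 79 others at least 2-fold higher at 45 than at 25 DAF in Youngsan, and 29 below 2-fold. The first group had median levels of 1.10, 42.7 and 4310 in Youngsan at 8, 25 and 45 DAF, of 0.75, 106.1 and 1928 in CpFatB4, and of 2.24, 46.2 and 2003 in CpFatB5. All 13 were at least 2-fold higher at 45 than at 25 DAF in each of the 3 lines. The second group had medians of 474.9, 630.7 and 2734 in Youngsan, of 422.0, 606.4 and 1023 in CpFatB4, and of 365.2, 623.5 and 1190 in CpFatB5, and 26 of its genes reached 2-fold in CpFatB4 and 31 in CpFatB5. In the third group Youngsan went from 1897 at 25 DAF to 2847 at 45 DAF, where CpFatB4 went from 1846 to 1220 and CpFatB5 from 1795 to 1147. These genes were thus measured well at all stages. Of the 29, 28 were below their own 25 DAF level in CpFatB4 and all 29 in CpFatB5. The rule and the limit of this group together place 43 and 53 below C2, which nearly fixes these numbers, so they are a description. Over all 3 groups, 28 members were above the 25 DAF level in Youngsan and below it in both transgenic lines, where 9.96% of the background was. Of these 28, 27 were in the third group, so the selection favours this number too.

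**Figure D3:**
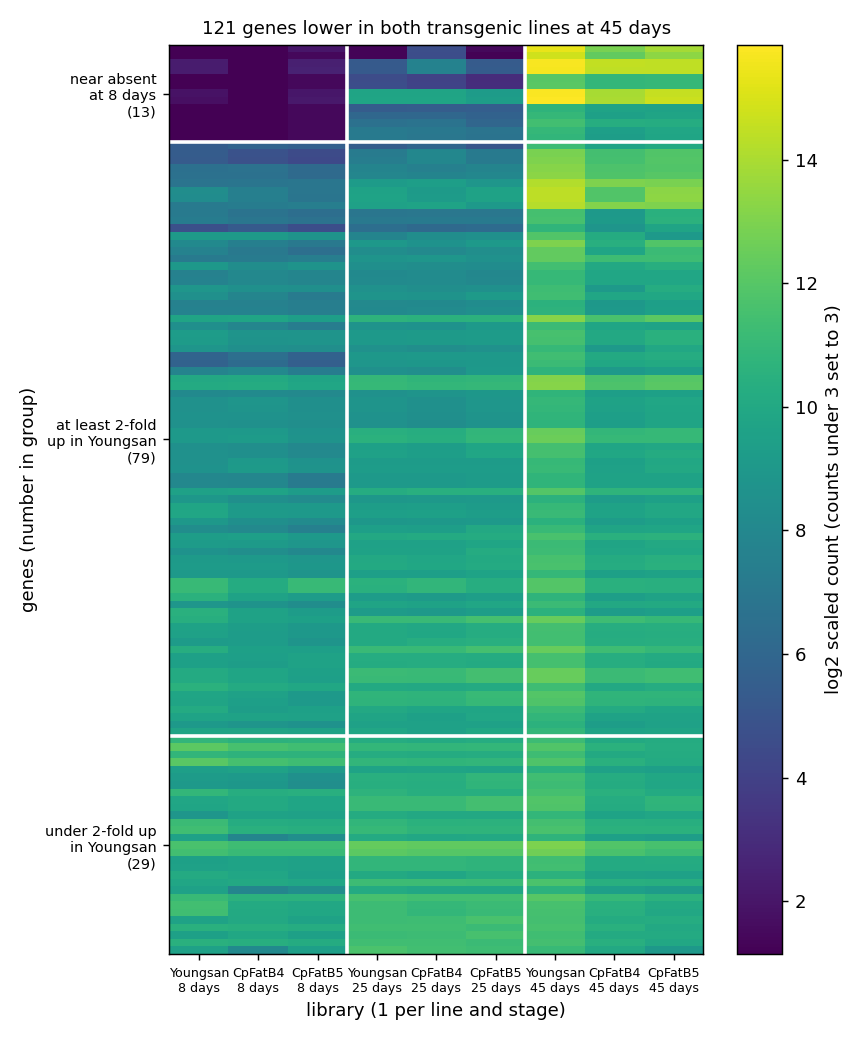
Log2 scaled counts of the 121 genes (rows, in 3 groups by time course) in the 9 libraries (columns, by stage and then line), with mean raw counts under 3 set to 3. The column of Youngsan at 45 days is the brightest in most rows, 116 of 121 having their highest level there, and the 13 genes at the top are dark in all 3 libraries of 8 days.

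The 10 genes with the most counts in C3 formed 5 pairs of 1 A and 1 C gene when members were matched across the subgenomes by the similarity of their levels, and 6 of them belonged to the group nearly absent at 8 DAF. Counts are per gene and not per length, so they are compared between libraries and not between genes. BnaC09g36510D, listed under biosynthetic process in the GO table of the study, had levels of 3.3, 900.4 and 59484 in C1, C2 and C3, then 1.1, 893.9 and 16556 in 41, 42 and 43, and 4.5, 649.9 and 25970 in 51, 52 and 53. Its partner BnaA10g13870D had 842.3, 838.8 and 606.5 at 25 DAF and 55651, 15651 and 24029 at 45 DAF, in Youngsan, CpFatB4 and CpFatB5. Both were therefore within 2-fold of Youngsan at 25 DAF in both transgenic lines, and at 45 DAF CpFatB4 was the lowest of the 3 lines, with log2 ratios of -1.85 and -1.83 against -1.20 and -1.21 in CpFatB5.

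The pair BnaA04g05010D and BnaCnng32920D, the latter listed under multicellular organismal development, was reduced about equally in both lines at 45 DAF. BnaA04g05010D stood at 53243 in C3, 23411 in 43 and 22657 in 53, and BnaCnng32920D at 52006, 22766 and 22331. At 25 DAF the order was another: BnaA04g05010D had 40.2 in C2, 202.9 in 42 and 41.0 in 52. Counts were taken as the mean raw value less the 1 that seems added. From its 48 counts in C2 and 226 in 42, the ratio of 42 to C2 was 5.19, with an exact 95% counting interval of 3.79 to 7.25. The same ratio of BnaCnng32920D was 5.10 (3.72 to 7.12). In 52 the ratios to C2 were 1.03 and 1.09, with intervals that include 1.

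The LEA genes BnaC04g48420D and BnaA04g24580D are the only members with a gene description in the study's tables of leading genes, both like Arabidopsis AT2G42560, a LEA domain-containing protein. BnaC04g48420D had 42396 scaled counts in C3, 7525 in 43 and 15090 in 53, and BnaA04g24580D had 28325, 5073 and 10683. The log2 ratios were -2.49 and -2.48 in CpFatB4 and -1.49 and -1.41 in CpFatB5, so both genes were lower in CpFatB4 than in CpFatB5. Hardly any reads were counted at the earlier stages, with levels of 0.7 to 4.0 in C1, 41, 51, C2 and 52. Only 42 stood apart, with 26.0 and 24.2. With 28 counts of BnaC04g48420D in 42 against 2 in C2, the ratio was 15.4 (exact 95% counting interval 3.89 to 134). With 26 against 1 that of BnaA04g24580D was 28.7 (4.71 to 1175). These 4 genes, the LEA pair and BnaA04g05010D with BnaCnng32920D, were the only members at least 2-fold higher than Youngsan in CpFatB4 at 25 DAF, where 1.78% of the background was. That they were at least 2-fold lower at 45 DAF is the rule, as for all members.

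The study's tables of leading genes describe 7 genes as LEA proteins, all past the minimum, and they were chosen on these same libraries. The 5 that are not members are like AT2G41280, the LEA protein M10. In CpFatB4 at 45 DAF 5 of the 7 were at least 2-fold lower, and in CpFatB5 only the 2 members were. BnaA05g02110D had 26500 in C3, 9623 in 43 and 25441 in 53, BnaC03g23240D 17369, 3474 and 26135, and BnaC04g01780D 10241, 3531 and 11092. For these M10-like genes 53 was near or above C3 where 43 was lower, so the rule did not take them. BnaA04g23790D and BnaC04g47570D stood at 78894 and 81186 in C3, 44449 and 45654 in 43, and 81857 and 84123 in 53. None of the 1716 lipid metabolism genes of the study was a member. Of these, 128 passed the minimum, and 2.17% of all background genes were members, so a list of that size holds few or none. The lipid list and the leading gene tables held 28 oleosin, caleosin and steroleosin genes past the minimum. None of them was 2-fold lower or higher in either line. In the background 14.6% were at least 2-fold lower in CpFatB4 and 14.0% in CpFatB5.

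**Figure D4:**
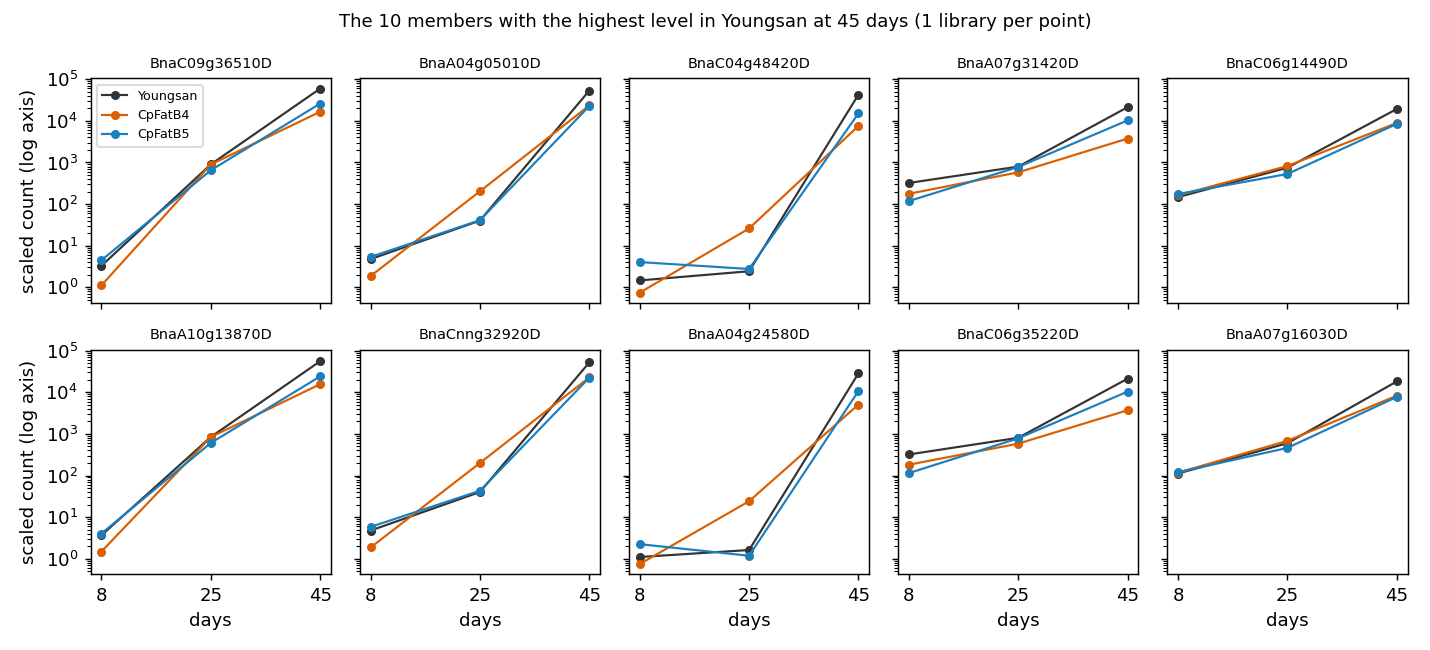
Scaled counts (log axis) at 8, 25 and 45 DAF (horizontal axis) of the 10 members with the most counts in Youngsan at 45 DAF, 1 panel per gene and the 2 genes of a pair above each other; each point is 1 library, black for Youngsan, orange for CpFatB4 and blue for CpFatB5. At 45 DAF the black point is the highest in all 10 panels, and at 25 DAF the orange point is at least 2-fold above both others for 4 of the genes, at 24.2 to 202.9 counts.

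The pair BnaA07g31420D and BnaC06g35220D was already well counted at 8 DAF. BnaA07g31420D had 322.2, 177.2 and 118.6 scaled counts in C1, 41 and 51, then 796.4, 579.9 and 779.7 in C2, 42 and 52, and 21274, 3757 and 10252 in C3, 43 and 53. BnaC06g35220D, listed under hydrolase activity and response to abiotic stimulus, had 321.1, 182.4 and 114.6 at 8 DAF and 21181, 3702 and 10375 at 45 DAF. The transgenic lines were thus below Youngsan at 8 DAF, near it at 25 DAF for CpFatB5, and below it again at 45 DAF. BnaC06g14490D and BnaA07g16030D had 147.5 to 174.8 and 111.9 to 119.9 over the 3 libraries of 8 DAF. At 25 DAF they had 750.0 and 598.2 in C2, 822.6 and 682.9 in 42, and 529.5 and 461.3 in 52, the lowest of the lines, with log2 ratios to Youngsan of -0.50 and -0.38 in CpFatB5. At 45 DAF they stood at 19250 and 18177 in C3, 8890 and 8248 in 43, and 8432 and 7724 in 53.

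The 9 genes over 4-fold lower in CpFatB4 were the LEA pair, BnaA07g31420D and BnaC06g35220D, BnaC06g23110D and BnaA07g22300D, BnaA03g45700D and BnaC07g37830D, and BnaA07g30880D. BnaC06g23110D stood at 8288 in C3, 1376 in 43 and 3695 in 53, a log2 ratio of -2.59 in CpFatB4 and -1.17 in CpFatB5. BnaA07g22300D stood at 5090, 872.8 and 2329, and BnaA03g45700D, listed under nitrogen compound metabolic process, at 3104, 574.1 and 1534. BnaC07g37830D stood at 2987, 559.2 and 1448, and BnaA07g30880D at 2489, 547.6 and 1206. In all 9, CpFatB5 lay between CpFatB4 and Youngsan. The same 9 were the only members at least 2-fold higher in 53 than in 43, against 8.10% of the background, and BnaC05g45930D was the only one at least 2-fold lower, against 13.3%. Of the 9, 7 were also below Youngsan at 8 DAF in both lines, as were 68 of the 121 genes (56.2%) and 43.0% of the background. In the 121 genes as a whole, 43 was the lower of the transgenic libraries for 84, and 53 for 37 or 30.6%, where 53 was the lower for 56.3% of the background. The rule used 43 and 53, so the comparisons between these libraries are a description of the selection.

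At 8 DAF, in libraries the rule did not use, the genes were modestly lower in CpFatB5. The median log2 ratio to Youngsan was -0.32 for the 121 genes and 0.01 for the background in CpFatB5, and 92 of the genes, or 76.0%, were below 0 against 49.3%. Without the 13 genes of at most 10 raw counts the median was -0.41 over 108 genes. In CpFatB4 the median was -0.13 against -0.05, and 76 genes were below 0, or 62.8% against 54.5%. At least 2-fold lower were 7 genes in CpFatB4 (background 2.41%) and 12 in CpFatB5 (background 2.19%), and none was 2-fold higher in either line, where 2.87% and 3.36% of the background were. The 7 include BnaA04g05010D and BnaCnng32920D, which were hardly counted at this stage. Each had mean raw counts of 6.5 in C1 and 2.5 in 41, the latter set to 3 for the ratio. The comparisons share the library C1.

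In both lines at 8 DAF 4 members were at least 2-fold lower, against 1.15% of the background, and they are 2 pairs. BnaC02g43350D had 2697 in C1, 1109 in 41 and 987.9 in 51, and BnaA02g34420D, listed under response to other organism, had 2591, 1086 and 963.7. At 25 DAF the lines came close, with 2427, 1942 and 2314 for BnaC02g43350D in C2, 42 and 52, and at 45 DAF they parted again at 3036, 1408 and 1096. BnaC07g20310D had 754.8, 230.3 and 337.0 at 8 DAF, and its partner BnaA06g35450D, listed under transmembrane transporter activity, had 769.2, 230.3 and 337.4. At 25 DAF these stood at 1133, 988.4 and 1028 and at 1130, 983.5 and 1002. Their levels in both transgenic libraries were thus below Youngsan at the first and last stage and within 2-fold of it at 25 DAF. In the other direction, BnaA05g36400D had 459.8 in C1, 783.1 in 41 and 767.3 in 51, and was the member with the largest mean ratio above Youngsan at 8 DAF among those well counted. At 45 DAF it stood at 1892, 832.1 and 938.8. BnaC07g31620D had 378.7, 554.0 and 406.6 at 8 DAF.

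At 25 DAF the genes were close to Youngsan in both lines. The median log2 ratio was -0.05 in CpFatB4, against 0.04 for the background, and 0.03 in CpFatB5, against -0.07. In both lines at once 107 members, or 88.4%, lay within 0.5 of Youngsan on the log2 scale, against 86.6% of the background. No member was 2-fold lower in CpFatB4 (background 0.485%), and 2 were in CpFatB5 (background 3.68%). These were BnaA09g00490D, listed under hydrolase and transferase activity, with 24.4 scaled counts in C2, 17.5 in 42 and 8.3 in 52, and BnaCnng01190D, with 23.1, 16.6 and 7.9. The ratio of 52 to C2 was 0.335 (exact 95% counting interval 0.146 to 0.707) and 0.312 (0.130 to 0.681). At 45 DAF the pair stood at 4310, 1919 and 1998 and at 4160, 1928 and 2003. Of the genes counted well, BnaA09g04190D had the largest mean ratio below Youngsan, with 1642, 1316 and 1340 at 25 DAF.

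**Figure D5:**
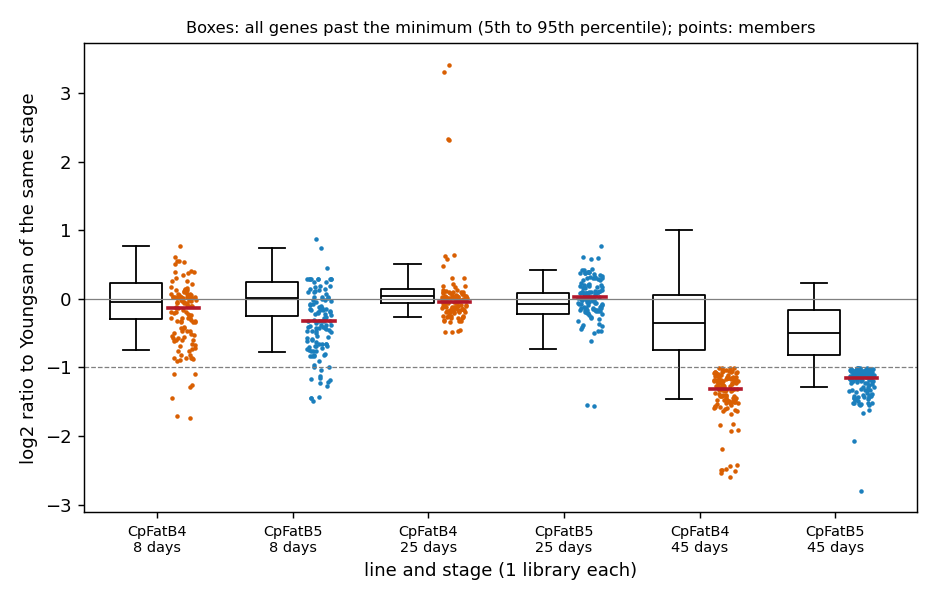
Log2 ratio to the Youngsan library of the same stage (vertical axis) in each transgenic line at 8, 25 and 45 DAF; boxes with whiskers from the 5th to the 95th percentile are the 5571 background genes, points are the 121 genes and red bars their medians. The red bars lie at -0.13 and -0.32 at 8 DAF, at -0.05 and 0.03 at 25 DAF, and at -1.32 and -1.15 at 45 DAF, where the rule set them.

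The genes of the third time-course group that were lower at 45 DAF than at 25 DAF in the transgenic lines had substantial levels throughout. BnaA10g26060D, listed under oxidoreductase activity and biosynthetic process, had 4480, 1897 and 3788 in C1, C2 and C3, 3100, 1846 and 1518 in 41, 42 and 43, and 2650, 1908 and 1229 in 51, 52 and 53. Its partner BnaCnng10340D had 3604 in C3, 1440 in 43 and 1142 in 53. In Youngsan the level came back at 45 DAF after a lower value at 25 DAF, and in both transgenic lines it did not. BnaC08g49610D, listed under response to other organism, and BnaA09g47750D stood at 2336 and 2402 in C2 and 2638 and 2823 in C3, but at 2439 and 2508 in 42 and 1126 and 1173 in 43, and at 3058 and 3145 in 52 and 1146 and 1243 in 53. BnaC03g13250D was the only member lower in C3 than in C2, at 2173 against 3244, and it stood at 2732 in 42 and 1021 in 43 and at 2527 in 52 and 515.0 in 53. These 5 genes were singled out after their values were seen.

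The GO table of the study, which holds 1770 genes that differed between stages or lines, lists 27 of the 121 genes, which is 3.47% of the 777 of its genes that passed the minimum. It gives a category for a minority of the genes and no unbiased one. The category with the largest share of its measured genes among the members, of those with at least 4 members, was response to other organism, with 4 of 29 or 13.8%, beside the 3.47% of all genes in that table. These 4 were BnaA03g55950D at 9428, 3395 and 4331 in C3, 43 and 53, BnaA02g00030D at 9235, 3204 and 4566, and the genes BnaA02g34420D and BnaC08g49610D described above. Hydrolase activity had 4 of 65, cellular metabolic process 4 of 69 and response to chemical 4 of 75. None of the 14 photosystem and 50 ribonucleoprotein complex genes past the minimum was a member, and at these shares lists of that size hold few members or none. Among the 27 listed genes no category thus covered more than 4, and the other members have no category in that table.

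The pairs named above were formed by similarity of levels and not by sequence. The 121 genes were 60 A and 61 C genes, or 49.6% and 50.4%, and the background held 49.6% A and 50.1% C. When each gene was matched to the member of the other subgenome with the most similar levels over the 9 libraries, 48 pairs chose each other, holding 96 of the 121 genes. The largest difference of centred log2 levels in any library was 0.018 to 0.45 across the pairs, with a median of 0.055, and stayed under 0.1 in 32 pairs, a closeness that the matching itself favours. Of the 41 pairs with both genes on a numbered chromosome, 20 had the same number in both subgenomes, and the files do not say which genes are copies of each other. No members had identical counts. Reads were mapped to coding sequences with up to 2 mismatches, so genes with nearly identical sequences may share reads, and the 2 genes of a pair are not counted on as independent measurements.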

How the data were processed

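RNA-Seq was made from whole pods of B. napus, 1 library per line and stage. Per the labels and the methods of the study, the authors prepared libraries with a TruSeq kit, trimmed paired reads with SolexaQA, and mapped them with Bowtie2 (2.1.0) to the Genoscope coding sequences. The tool used for counting is not given in the sources used here. The deposited raw read counts, whole numbers of at least 1 in 18 columns (2 per library), have no zero, so 1 seems to have been added to each, and this unit is recorded as other. The 13 deposited columns of values that the authors had normalized with the DESeq package and rounded were not used.

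Libraries were scaled with median-of-ratios factors from the 18 columns, and a level is the mean of the 2 scaled columns of a library. For ratios, mean raw counts under 3 were set to 3. Genes with log2 ratios of at most -1 for 43 and 53 against C3, and a mean level of at least 1000 in both pairs, were members. The members and lists were chosen with earlier results of these data known. The selection code was checked with planted changes in a self-test. The planted falls and levels lay above the fold limit and the minimum, with no other difference in composition between libraries. The self-test therefore says nothing on how the selection depends on scaling. Named genes were the 10 members with the highest level in C3, the 10 with the largest mean ratio below Youngsan, those nearest each threshold, those in the study's gene tables, and the 3 highest and lowest against Youngsan at 8 and 25 DAF. Others were named after their values were seen. Gene descriptions were taken only from the study's tables of lipid genes, GO categories and leading genes. The annotation that the study reports for most of its mapped genes was not used. The planned keyword lists were therefore applied only to genes in those tables, with the photosystem GO category for the pod wall. The promoter motif search was not run. Alternatives were 5 other scalings, single columns, other minima, a stricter fold and, added later, centred ratios. Intervals (exact binomial, 95%) cover counting error only and take each count as 1 independent read. That unit is not established, since the summed counts exceed the listed clean reads in every library. Calculations were run in Python 3.11.15 with pandas 2.3.3, numpy 2.4.6 and scipy 1.17.1, and plots were drawn with matplotlib 3.10.9.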

Additional observations from a re-analysis of the deposited data

Results flagged for a closer look

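Of the 121 genes, 28 were above their 25 DAF level at 45 DAF in Youngsan and below it in both transgenic lines, which is 23.1% of them against 9.96% of the 5571 background genes. The difference between lines was not tested, since each line has 1 library per stage, and the rule used the 3 libraries of 45 DAF. The changes were within 2-fold in Youngsan for 27 of the 28 and at least 2-fold in opposite directions for 0. The number was 12 to 51 under the other scalings. The largest Youngsan ratio was that of BnaCnng41220D, with a log2 ratio of 1.32 in Youngsan, -0.02 in CpFatB4 and -0.03 in CpFatB5.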

How the results depend on the processing

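The number of genes selected, 121, was 231 under total count scaling, 39 under TMM, 33 under total counts without the 20 most abundant genes, 22 under upper quartile scaling, 13 with size factors from genes of a mean of at least 1000 and 6 with centred ratios, an alternative added after seeing the data. It was 386 with a minimum of 200, 1275 with none, 80 with the minimum on the mean of all 9 libraries and 3 at a log2 limit of -1.5, and 124 with either column alone (116 shared). The median ratio in CpFatB4, -1.32, was -1.81 under total count scaling, -1.20 under TMM, -1.19 under upper quartile scaling and -1.24 without the 20 most abundant genes. In CpFatB5, -1.15 became -0.98 under TMM, -0.68 with size factors from abundant genes, -0.85 under upper quartile scaling and -0.95 without the 20 most abundant genes. Medians relative to the background cannot move when a library is rescaled, so their 45 values under other scalings carry no information; with single columns (18 values) they moved by less than the spread between the columns of a library. None of the 406 alternative values of named members at 45 DAF changed sign. The rule had set these ratios at -1 or lower, so this was nearly fixed in advance and lends no support. Scaling moves every ratio of a library by one amount. Leaving out a replicate was not possible with 1 library per line and stage. No paired analysis was possible because each group holds 1 library and no result comes from a test. Depth limits the members at 8 DAF, where 13 had at most 10 raw counts.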
